A study of Taeniopygia guttata with 21 samples.

Results

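The genes described here encode axon guidance ligands and receptors, measured in embryonic zebra finch skin. They were taken by symbol: a gene was included when its symbol began as those of the semaphorins, plexins, neuropilins, Eph receptors, ephrins, Slits, Robos, netrins, UNC5 receptors, DCC or RGM genes do, and when its mean over all libraries was at least 10. This gave 50 of the 18202 genes in the deposited table. Only 8546 of those carried a symbol, and guidance genes among the other 9656 could not be found in this way. Among the genes matched by symbol, 0 fell below the minimum mean. The gene nearest to it was EPHA8, with a mean of 23.0. Of the 50, 47 belong to these families: 15 semaphorins, 5 plexins, NRP1, 3 ephrins, 12 Eph receptors, 3 Slits, 3 netrins, 3 UNC5 receptors and 2 RGM genes. The other 3 were PLXDC1, PLXDC2 and UNC50, which share only the first letters of a symbol with the plexins or UNC5 receptors. They are left out of the family counts below but are included in counts and medians over all 50. No symbol of a Robo receptor, of DCC or of NRP2 was among those matched, so these are not analysed here.

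RNA was sequenced from skin of wild type zebra finch (Taeniopygia guttata, a songbird) embryos at stage HH28, when feather fields are being laid out. The series asks which molecules are restricted to the skin regions that will become colour domains. Skin was dissected from 7 locations with 3 libraries each, 21 in all. The 3 locations on the back were the anterior part, the saddle and the posterior part. The 4 on the belly side were an anterior part, the ventral-most skin, the flank and a posterior part. All embryos shared 1 genotype and stage, the labels name no treatment, and they give neither the sex of the embryos nor whether a sample was pooled. The 3 replicate numbers (3, 8 and 11) occur at every location. The deposited values were read counts scaled by 1 size factor per library and are called normalised read counts. Whole reads recovered from them summed to totals of 12852638 to 22994609 per library.

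Guidance molecules steer growing axons, and also migrating cells and vessels, by attraction or repulsion. Semaphorins signal through plexins, the secreted class with neuropilins as co-receptors. Ephrins sit on the cell surface, A-type ephrins by a lipid anchor and B-type ephrins with a cytoplasmic tail, and signal on contact with Eph receptors on neighbouring cells, often in both directions. Slits bind Robos, netrins bind DCC and UNC5 receptors, and RGM proteins bind neogenin. In bird embryos these cues are known to pattern the paths of neural crest cells, among them the melanoblasts that enter the skin, and of the sensory nerves that grow into it.

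The median share of variance taken by location was larger over these genes than over all genes tested. Tests were run with limma, a linear model fitted across all genes, on log2(normalised count + 1), and a gene is called when its Benjamini-Hochberg adjusted p over all 14005 genes tested was below 0.05. All 50 genes passed the filter on low values. Limma called a difference among the 7 locations for 22 of the 50 (44%), against 15.4% of all genes tested. The replicate block, a fit that also takes out the replicate number, called 33 members and 30% of all genes tested. The median over members of the largest difference between location means was 1.54 on the log2 scale, against 0.72 over all genes. It was at least 2-fold in 37 of the 50, and in 39.1% of all genes. Location took a median of 55.1% of a member's variance on the log2 scale and the replicate number 13.9%, against 37.1% and 23.0% over all genes.

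**Figure D1:**
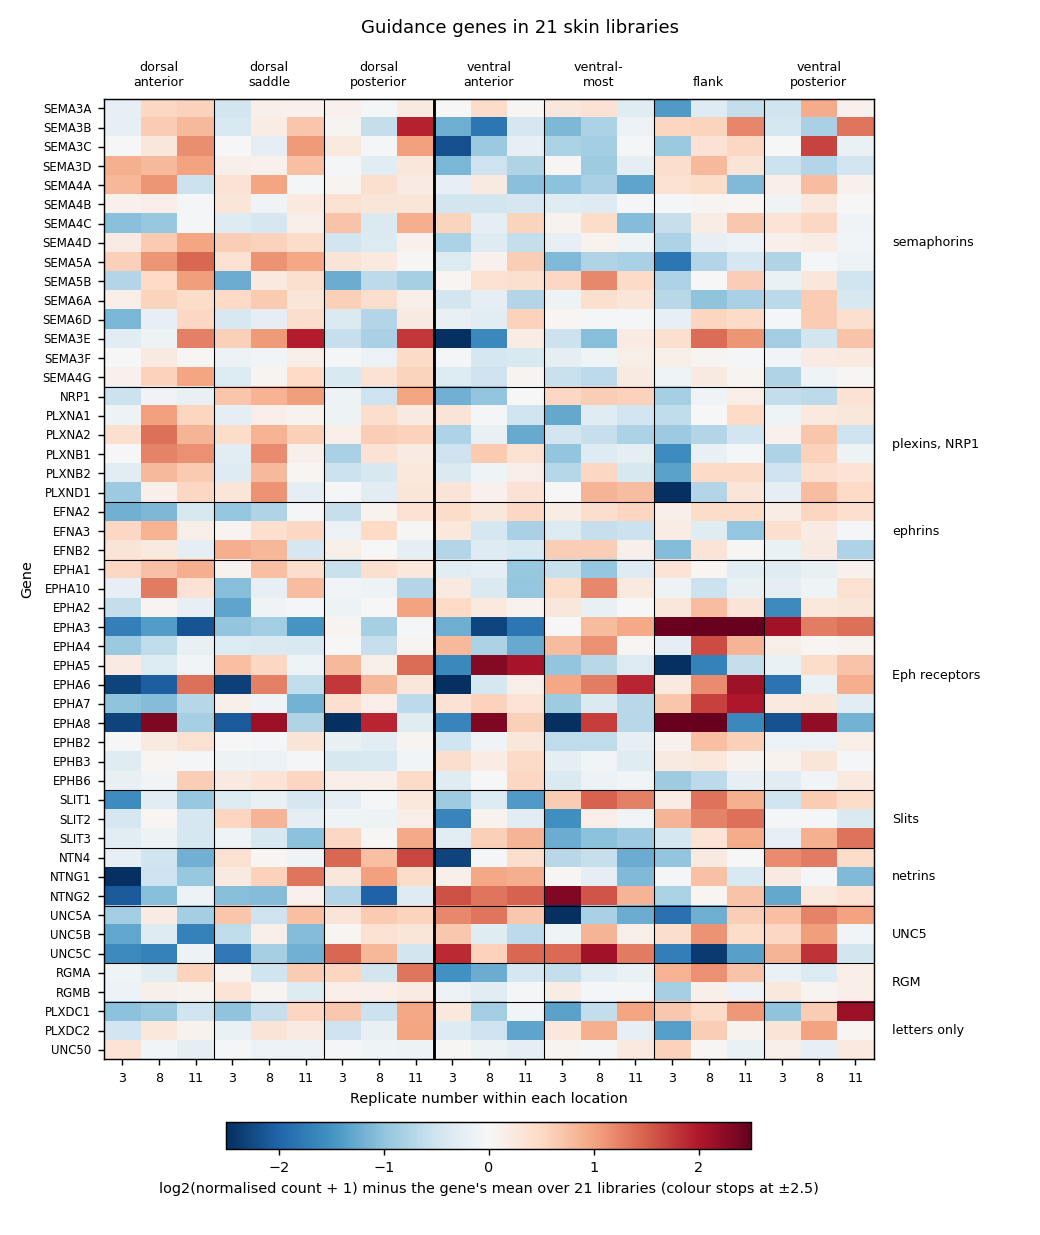
Each row is 1 gene and each column 1 of the 21 libraries. Colour gives log2(normalised count + 1) minus the gene's own mean over the libraries, red above and blue below. EPHA3 is red in all 3 flank libraries and blue in ventral anterior skin, and SEMA5A and PLXNA2 are mostly red on the dorsal side.

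All 3 netrins and all 3 UNC5 receptors differed among the locations, as did 2 of 3 Slits, 5 of 12 Eph receptors, 5 of 15 semaphorins, PLXNA2, NRP1, EFNA2 and RGMA. The largest differences between location means among those called were those of EPHA3 (4.54 on the log2 scale), UNC5C (3.43), NTNG2 (2.68), UNC5A (2.63), EPHA7 (2.41), NTN4 (2.12), SLIT1 (2.06), NTNG1 (2.05), SEMA5A (2.03), RGMA (1.97), UNC5B (1.77) and SLIT3 (1.74). On the log2 scale ventral anterior skin had the lowest mean for 17 of the 50 genes (14.5% of all genes tested had their lowest mean there), and ventral posterior skin for 0 (14% of all genes). Flank and dorsal anterior skin each had the highest mean for 12 (17.2% and 16.8% of all genes). Leaving out 1 library ended 8 of the 22 calls at least once, those of UNC5A, RGMA, SLIT3, NTN4, UNC5B, NTNG1, NRP1 and EPHB2 (adjusted p up to 0.129, for EPHB2). By edgeR the calls of UNC5A, UNC5B, NTNG1, NRP1 and EPHB2 ended as well. Those of NTNG1, NRP1 and EPHB2 also ended without the filter on low values, and that of EPHB2 with TMM scaling. UNC5A was low, with 32 recovered reads over the 3 ventral-most libraries. Only EPHA3 and SEMA3D were called whichever of the 3 replicate numbers was left out, which leaves 2 libraries per location.

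Levels of cell type markers differed between the locations, and in bulk samples fewer cells of a type and less RNA per cell cannot be told apart. Markers of epidermis and dermis were present in every library. The summed level of 10 epidermis genes lay between 22092 and 44808 in dorsal libraries and between 9004 and 20642 in ventral ones, and 8 of the 10 were called higher dorsally. Endothelial genes went the other way, with 6 of 10 tested lower dorsally and summed levels of 1452 to 5118 and 2037 to 7542. Schwann cell and neural crest genes (2 of 4 higher dorsally, 5853 to 9341 against 2077 to 6105) and melanocyte genes (7 of 9, 2189.8 to 7594 against 1170.0 to 2725) were also higher in dorsal skin. Of 10 dermal genes 4 were lower dorsally, and of 8 neuron genes 1 was higher and 2 lower. Of 6 cartilage genes 1 was higher and 2 lower, and no gene of the short lists for skeletal muscle (8 tested), macrophages (3) or spinal cord (1) was called. Skeletal muscle genes were still uneven, with summed levels of 3481.5 to 11342 in ventral anterior and 72.6 to 498 in ventral-most libraries. Flank libraries held 159 to 4257 and ventral posterior ones 141 to 5705. On the back they were 2814 to 4235 posteriorly, 63.8 to 1041 in the saddle and 87.2 to 5978 anteriorly. SOX2, a spinal cord marker, was at 0 in every library. The 4 spinal cord genes in the table summed to 923 to 6791 in dorsal and 1592 to 6551 in ventral libraries. What part these differences have in the results below was not tested.

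Between dorsal and ventral skin, 9 members were higher dorsally and 8 lower. Limma thus called 17 of 50 (34%), against 17.2% of all genes tested. By direction, the shares of all genes were 9.31% higher and 7.89% lower. With the replicate block 16 members were higher and 9 lower, against 15.3% and 13.9% of all genes (29.2% together). The median log2 fold change was 0.16 over members and 0.00 over all genes. No member separated the 9 dorsal from the 12 ventral libraries without overlap, which 0.878% of all genes did.

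**Figure D2:**
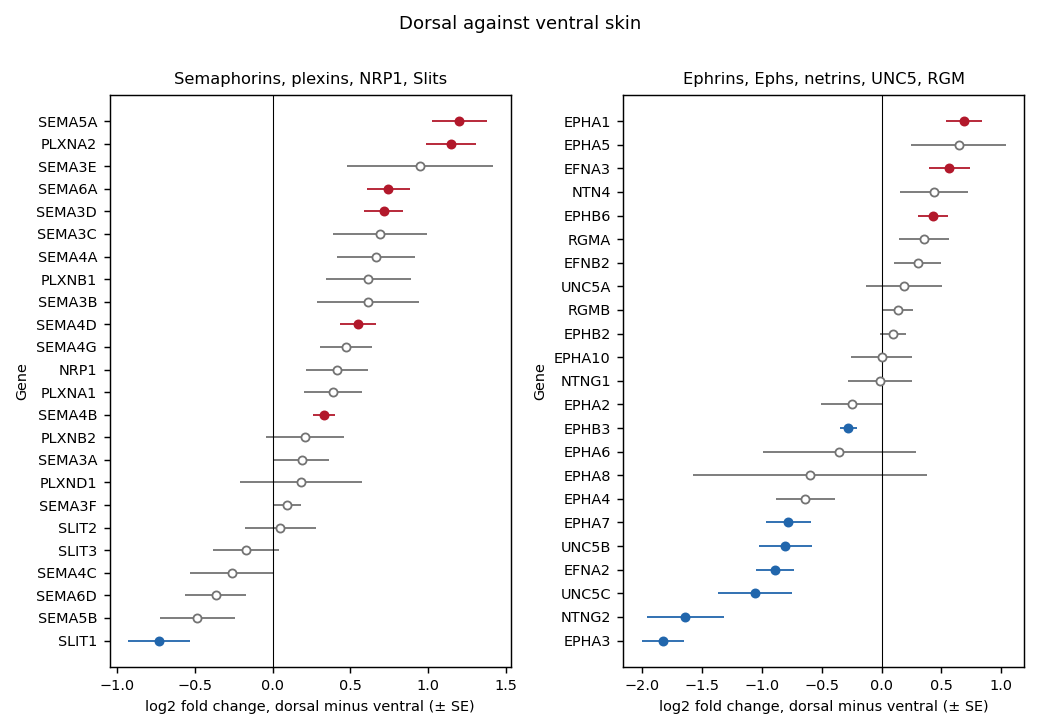
Points give the log2 fold change of each of the 47 guidance genes between dorsal and ventral skin, and bars its SE. Filled red points were called higher dorsally, filled blue points lower, and open grey points were not called. All 5 called semaphorins lie on the dorsal side, and both called UNC5 receptors and SLIT1 on the ventral side.

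Of 15 semaphorins 5 were called higher dorsally and 0 lower (10 higher and 1 lower with the replicate block) and their median log2 fold change was 0.55. SEMA5A (GSZG0006286, chromosome 2, 83610335 to 83760172) encodes a transmembrane semaphorin with thrombospondin repeats, which can attract or repel axons. Its lowest, median and highest normalised counts were 2669, 3964 and 7132 in dorsal libraries and 751, 1776 and 4042 in ventral ones. The ranges overlapped through the ventral anterior libraries, at 2064, 2842 and 4042 in replicates 3, 8 and 11 (difference 1.20 on the log2 scale with SE 0.18 and adjusted p = 0.000121). Within the back its mean was highest anteriorly, at 5574 ± 1585 (SD, n = 3), then 4762 ± 1201 in the saddle and 3024 ± 314 posteriorly. Over the anterior and posterior locations alone SEMA5A was not called (0.71, adjusted p = 0.0676).

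SEMA6A (GSZG0018203, chromosome Z_random, 2254772 to 2321148), a transmembrane ligand of A-class plexins, was 1955 ± 238 in dorsal libraries (SD, n = 9) and 1235 ± 485 in ventral ones (SD, n = 12; difference 0.74 on the log2 scale with SE 0.14 and adjusted p = 0.00099). The dorsal range of 1594 to 2271 also held 2 ventral-most libraries (1905 and 1774) and ventral posterior replicate 8 (2234), while the flank libraries were at 899, 721 and 825. SEMA3D, a secreted semaphorin, averaged 6613 ± 2075 dorsally and 4183 ± 1879 ventrally (difference 0.71 on the log2 scale with SE 0.12 and adjusted p = 0.000576). SEMA4D (GSZG0017759, chromosome Z, 7205831 to 7224097), the ligand of PLXNB1, averaged 961 ± 299 and 641 ± 137 (difference 0.55 on the log2 scale with SE 0.11 and adjusted p = 0.0025). The difference of SEMA4B was the smallest of the 5, with 1531 ± 167 and 1223 ± 205 (difference 0.33 on the log2 scale with SE 0.07 and adjusted p = 0.00293). SEMA4D was not called over the anterior and posterior locations alone (0.44).

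The replicate block added 5 semaphorins called higher dorsally. They were SEMA4G (log2 fold change 0.47, adjusted p = 0.0666 without the block and 0.00187 with it), SEMA4A (0.67, 0.0794 and 0.00415), SEMA3C (0.69, 0.137 and 0.042), SEMA3E (0.95, 0.194 and 0.0279) and SEMA3B (0.61, 0.232 and 0.0258). SEMA5B, the close relative of SEMA5A, was called lower with the block (-0.48, 0.2 and 0.0487). Not called in either fit were SEMA3A, SEMA3F, SEMA4C and SEMA6D.

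Of the semaphorin receptors, PLXNA2 (GSZG0008046, chromosome 26, 3571959 to 3682353), an A-class plexin that binds SEMA6A and, with neuropilins, secreted semaphorins, was higher dorsally. Its lowest, median and highest counts were 1373, 1864 and 3193 in dorsal libraries and 514, 843 and 1997 in ventral ones (difference 1.15 on the log2 scale with SE 0.16 and adjusted p = 8.58e-05). The overlap came from ventral posterior skin, where the libraries read 1334, 1997 and 863, while the ventral anterior, ventral-most and flank libraries all lay below the lowest dorsal one. PLXNB1, the receptor of SEMA4D, averaged 389 ± 186 dorsally and 249 ± 105 ventrally (difference 0.62 on the log2 scale with SE 0.27 and adjusted p = 0.143, and adjusted p = 0.000748 with the replicate block). NRP1, the neuropilin that binds SEMA3A and also VEGF in endothelium, averaged 2451 ± 1086 and 1837 ± 769.7 (difference 0.41 on the log2 scale with SE 0.20 and adjusted p = 0.179, and adjusted p = 0.0322 with the block). PLXNA1, PLXNB2 and PLXND1 were not called in either fit.

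**Figure D3:**
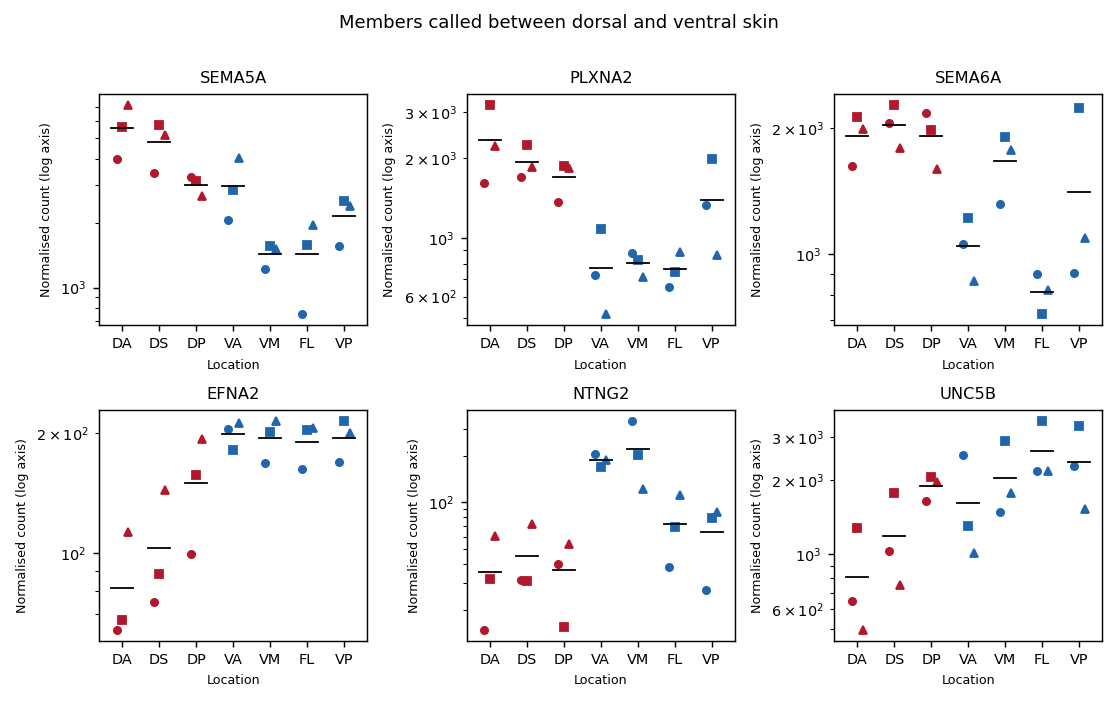
Normalised read counts of 6 members in every library, on log axes. Red marks dorsal and blue ventral libraries, circles, squares and triangles stand for replicates 3, 8 and 11, and lines are location means (DA, DS and DP, dorsal anterior, saddle and posterior; VA, VM, FL and VP, ventral anterior, ventral-most, flank and ventral posterior). SEMA5A, PLXNA2 and SEMA6A are higher in dorsal skin, and EFNA2, NTNG2 and UNC5B in ventral skin.

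The A-type ephrins differed in opposite directions. EFNA2 (GSZG0008617, chromosome 28, 4139793 to 4145577) was lower in dorsal skin, with lowest, median and highest counts of 63.9, 99.6 and 194 against 162, 203 and 215 (difference -0.89 on the log2 scale with SE 0.16 and adjusted p = 0.000647). Its 4 ventral locations had nearly the same mean, from 191 to 199.7, while the dorsal means were 81.5 anteriorly, 103 in the saddle and 150.3 posteriorly. EFNA3 (GSZG0014872, chromosome Un, 41358078 to 41359790) was higher dorsally, at 167 ± 37.4 against 115 ± 35.4 (difference 0.57 on the log2 scale with SE 0.17 and adjusted p = 0.03). That call ended without dorsal anterior replicate 8 (0.51), dorsal saddle replicate 8 (0.55) or 11 (0.54), dorsal posterior replicate 8 (0.51), ventral anterior replicate 11 (0.51) or ventral posterior replicate 11 (0.54), and over the anterior and posterior locations alone (0.38). EFNB2, a transmembrane ephrin of arteries and of many embryonic boundaries, was not called in any comparison (0.30, SE 0.20 between dorsal and ventral skin).

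Among the Eph receptors 2 were higher dorsally and 3 lower, of 12. EPHA1, which is known mainly from epithelia, averaged 655 ± 173 dorsally and 404 ± 106 ventrally (difference 0.69 on the log2 scale with SE 0.15 and adjusted p = 0.00338). EPHB6 (GSZG0000906, chromosome 1, 89123320 to 89189762), a receptor whose kinase domain is inactive, averaged 10033 ± 1826 and 7552 ± 1955 (difference 0.43 on the log2 scale with SE 0.12 and adjusted p = 0.022). Lower dorsally were EPHA3 (-1.83, SE 0.18), EPHA7 (-0.78, SE 0.19) and EPHB3, the last by a small amount, at 5375 ± 606 against 6578 ± 1101 (difference -0.28 on the log2 scale with SE 0.07 and adjusted p = 0.00996). The calls of EPHA7 and EPHB6 ended without the flank (-0.40 and 0.30, adjusted p = 0.163 and 0.134) and over the anterior and posterior locations alone (-0.73 and 0.17). EPHA3 was called under both alternatives, with smaller differences (-1.17 and -0.92).

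Of 3 netrins 1 was called lower dorsally, of 3 Slits 1 and of 3 UNC5 receptors 2, and 0 were called higher. NTNG2, a lipid-anchored netrin that binds a synaptic adhesion protein and not DCC, was 39.0 ± 19.7 dorsally and 136 ± 88.5 ventrally (difference -1.64 on the log2 scale with SE 0.32 and adjusted p = 0.00165). Its ventral excess lay in ventral anterior skin (204, 170.1 and 187) and ventral-most skin (338, 202 and 121), and the flank (38.1, 69.5 and 111) and ventral posterior libraries (27.2, 79.4 and 86.2) overlapped the dorsal range of 14.9 to 72.7. UNC5B (GSZG0011962, chromosome 6, 2454245 to 2468103), a netrin receptor that also serves in endothelium, was 1295 ± 593 and 2162 ± 789 (difference -0.81 on the log2 scale with SE 0.22 and adjusted p = 0.0166). UNC5C (GSZG0010294, chromosome 4, 19035187 to 19126466), which mediates repulsion by netrin, was 398 ± 366 and 901 ± 634 (difference -1.06 on the log2 scale with SE 0.31 and adjusted p = 0.0241). SLIT1, a secreted repellent, was 939 ± 295 and 1749 ± 961 (difference -0.73 on the log2 scale with SE 0.20 and adjusted p = 0.0155). The calls of UNC5B and SLIT1 ended without the flank (-0.70 and -0.57). Those of UNC5B, SLIT1 and UNC5C ended over the anterior and posterior locations alone (-0.64, -0.13 and -1.29). That of UNC5C also ended without dorsal anterior replicate 3 (-0.98) or 8 (-0.96), dorsal saddle replicate 3 (-0.97) or dorsal posterior replicate 11 (-0.88), while without the flank the difference was larger (-1.82). RGMA and RGMB were not called.

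Of these 17 calls, only those of EPHA3, PLXNA2, SEMA5A, SEMA3D and SEMA6A remained whichever replicate number was left out.

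The flank differed from the other ventral locations in 7 guidance genes, 6 higher and 1 lower. This was 14% of members, against 3.05% of all genes tested, of which 1.61% were higher and 1.44% lower. With the replicate block 8 members were higher and 6 lower, against 3.94% and 3.35% of all genes (7.29% together). The median log2 fold change was 0.12 over members and 0.00 over all genes. Only the call of EPHA3 remained whichever replicate number was left out. Neuron markers were also highest in the flank, with a summed level of 4917 to 8530.4 against 1612 to 2825, 2418 to 3307 and 3544 to 4861 in ventral anterior, ventral-most and ventral posterior libraries. Of 8 neuron genes tested there, 1 was called higher and 1 lower (4 and 1 with the block), 1 of 10 endothelial genes was lower, 1 of 10 dermal genes was higher and 0 epidermis genes were called. Cartilage genes were lowest in the flank, with a summed level of 1951 to 3187 against 10326 to 17580.0, 6422 to 11486 and 4339.6 to 12878 at the other ventral locations in the same order and without overlap, and of 6 tested 1 was called higher and 1 lower. The part of these markers in the flank results was not tested.

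EPHA3 (GSZG0001031, chromosome 1, 100413067 to 100582602) encodes a receptor for A-type ephrins. Of all members it had the largest difference between the means of the 7 locations (4.54 on the log2 scale). The flank libraries held 27338, 33497 and 40476 normalised counts in replicates 3, 8 and 11. Ventral posterior libraries held 20972, 11984 and 12832, ventral-most libraries 4860.3, 8538 and 9446 and ventral anterior libraries 2107, 999 and 1400.5. All 3 flank libraries lay above every other library of the series, a separation at the highest location that 3 members showed (EPHA3, EPHA7 and SLIT2) and 3.44% of all genes (difference 2.63 on the log2 scale with SE 0.27 and adjusted p = 4.15e-05). On the back the counts were 1514, 1860.0 and 1095 anteriorly, 2480.0, 2696 and 1760.0 in the saddle and 5168, 2773 and 4777 posteriorly. The order of mean counts therefore ran from flank through ventral posterior, ventral-most, dorsal posterior and dorsal saddle to ventral anterior and dorsal anterior skin. On the log2 scale ventral anterior skin was lowest, below dorsal anterior skin. Libraries overlapped between ventral-most and dorsal posterior skin, between dorsal saddle and both ventral anterior and dorsal anterior skin, and between ventral anterior and dorsal anterior skin. Location took 95.3% of its variance on the log2 scale and the replicate number 0.2%.

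EPHA7 (GSZG0009632, chromosome 3, 76169612 to 76318347), a second receptor for A-type ephrins, stood at 1683, 3417 and 4223 in the flank, again above every other library, against 1332, 1564 and 1312 in ventral anterior, 566, 809.8 and 646 in ventral-most and 1234, 1273 and 851 in ventral posterior skin (difference 1.52 on the log2 scale with SE 0.29 and adjusted p = 0.00713). The 3 flank libraries were themselves unequal, and the call ended without flank replicate 8 (1.40). EPHB2, a receptor for B-type ephrins, averaged 12289.9 ± 2717 in the flank and between 6179.5 and 8397 at the other ventral locations (difference 0.70 on the log2 scale with SE 0.17 and adjusted p = 0.0279), and its call ended without flank replicate 8 (0.57) or 11 (0.65) and with the ventral locations fitted alone (adjusted p = 0.0897). Its flank libraries ran from 9283 to 14568, and dorsal anterior (8515 to 11228) and saddle ones (8315 to 10847) overlapped them. So did ventral anterior replicate 11 (10454) and ventral posterior replicate 11 (9664). EPHA4 averaged 3565 ± 2076 in the flank and 3068 ± 1109 in ventral-most skin and was not called (0.64, SE 0.37). No ephrin was called in the flank, where EFNA2, EFNA3 and EFNB2 averaged 191 ± 24.6, 106 ± 40.8 and 926 ± 404.

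**Figure D4:**
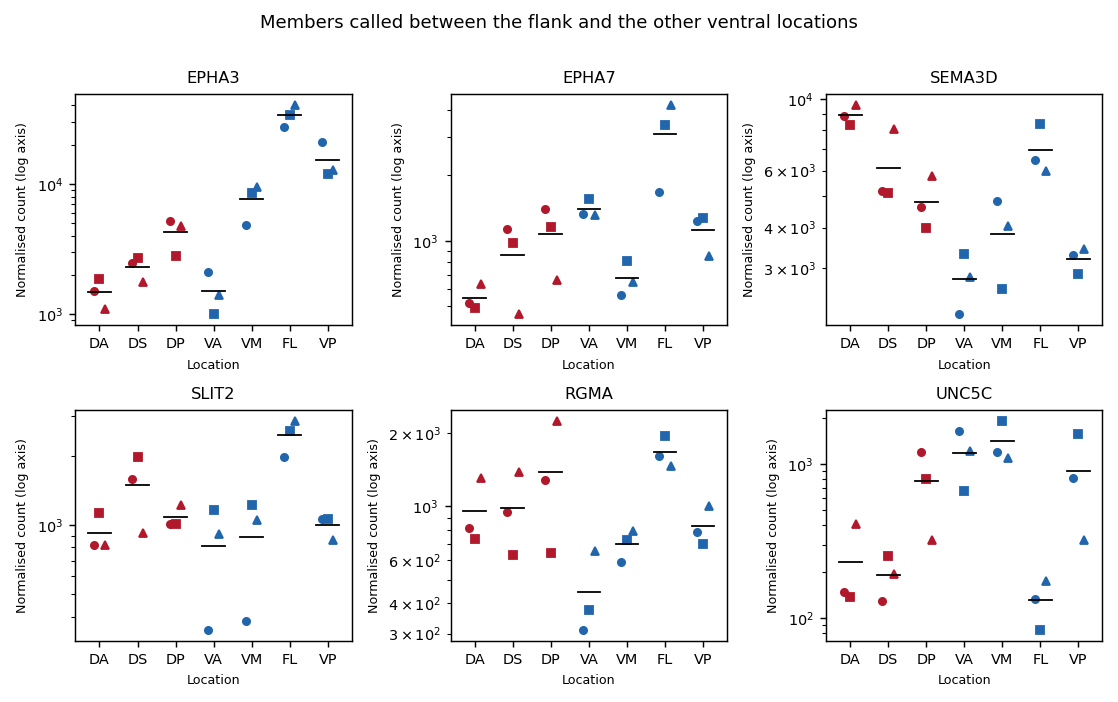
Normalised read counts of 6 members called between the flank (FL) and the other ventral locations, on log axes. Symbols and location codes are those used for the plot of dorsal and ventral members, with red for dorsal and blue for ventral libraries. EPHA3, EPHA7 and SLIT2 are higher in all 3 flank libraries than in any other library, and UNC5C is lower in the flank than at the other ventral locations.

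SEMA3D (GSZG0004728, chromosome 1A, 7636023 to 7734951) was higher in the flank, at 6461, 8376 and 5998, than in ventral anterior (2157, 3323 and 2815), ventral-most (4843, 2584 and 4037) and ventral posterior skin (3296, 2881 and 3426), without overlap (difference 1.11 on the log2 scale with SE 0.19 and adjusted p = 0.00312). The flank mean of 6945 lay within the range of the dorsal means, 4799 to 8909. SLIT2 (GSZG0010521, chromosome 4, 54328941 to 54589549), a secreted repellent, stood at 1993, 2587 and 2859 in the flank, above every other library of the series (difference 1.57 on the log2 scale with SE 0.34 and adjusted p = 0.0175). The margin was small, since dorsal saddle replicate 8 stood at 1988. The call ended without flank replicate 8 (1.53) or 11 (1.46) and with the ventral locations fitted alone (adjusted p = 0.0706). RGMA (GSZG0001505, chromosome 10_random, 294932 to 295630), a lipid-anchored repellent that binds neogenin, stood at 1618, 1953 and 1462 against means of 447, 702 and 828 in ventral anterior, ventral-most and ventral posterior skin (difference 1.42 on the log2 scale with SE 0.31 and adjusted p = 0.0184), and its call ended without flank replicate 3 (1.44) or 8 (1.30). The gene model of RGMA in the table spans only 699 bases, on sequence of chromosome 10 without a fixed position.

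UNC5C was the member lower in the flank. Its flank libraries held 134, 83.7 and 174, against 1633, 666 and 1215 in ventral anterior, 1194, 1915 and 1096 in ventral-most and 807, 1571 and 323 in ventral posterior skin, and no ventral library outside the flank was as low (difference -3.04 on the log2 scale with SE 0.47 and adjusted p = 0.00139). Dorsal anterior (147, 138 and 408) and saddle libraries (129, 252 and 193) overlapped the flank's range, and dorsal posterior libraries (1200.0, 796 and 323) were higher. Under the replicate block SEMA3A (-0.93, adjusted p = 0.012), SEMA6A (-0.69, 0.031), SEMA5A (-0.63, 0.0364), PLXND1 (-1.85, 0.0356) and EPHB6 (-0.53, 0.00232) were also called lower. SEMA3B (1.37, 0.00852) and SEMA3E (1.83, 0.0224) were called higher. The PLXND1 flank libraries held 14.8, 149 and 304 in replicates 3, 8 and 11. In the fit without the block its difference was -0.60 when flank replicate 3 was left out. With the block 1 secreted semaphorin was therefore lower in the flank and 3 were higher, SEMA3D included. Dorsal posterior replicate 11 held 586 counts of SEMA3B, above every flank library (222 to 358). The SEMA3E mean was 1030 ± 514 in the saddle and 838 ± 271 in the flank. Leaving out flank replicate 8 lowered the count of called members from 7 to 3, which were EPHA3, SEMA3D and UNC5C.

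Along the belly, EPHA3 alone was called between ventral anterior and ventral posterior skin (2% of members, against 1.76% of all genes, 0.921% higher and 0.835% lower anteriorly). It was 1502 ± 561 anteriorly and 15263 ± 4963 posteriorly (SD, n = 3; difference -3.36 on the log2 scale with SE 0.33 and adjusted p = 1.09e-05), and the libraries did not overlap. The median over members was -0.29, against 0.00 over all genes. Of 10 epidermis genes 1 was higher and 1 lower anteriorly, as was the case for 8 neuron and 10 dermal genes, and their part in the result was not tested. The replicate block called 4 members, against 4.21% of all genes (2.24% higher and 1.96% lower). All 4 were lower anteriorly, and the additional ones were SLIT1 (-1.08, adjusted p = 0.0199), SEMA4D (-0.65, 0.0449) and SEMA4B (-0.50, 0.0312).

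Along the back 3 members were called between anterior and posterior skin, 2 higher anteriorly and 1 lower (6% of members, against 2.27% of all genes, 0.757% higher and 1.51% lower). EPHA3 was again lower anteriorly (difference -1.49 on the log2 scale with SE 0.33 and adjusted p = 0.0197), a call that ended without dorsal anterior replicate 3 (-1.52) or 11 (-1.29), and without dorsal posterior replicate 3 (-1.32) or replicate 11 (-1.38). SEMA3D was higher anteriorly, at 8833, 8313 and 9580.5 against 4615, 3995 and 5785 (difference 0.91 on the log2 scale with SE 0.23 and adjusted p = 0.0468), and its call ended without any of 14 of the 21 libraries (0.78 to 1.05). SEMA4D was also higher anteriorly, at 855, 1160.1 and 1472 against 533, 586 and 796 (difference 0.85 on the log2 scale with SE 0.21 and adjusted p = 0.0416), and its call ended without any of 12 of them (0.66 to 0.85). For each of the 3 genes the dorsal anterior and dorsal posterior libraries did not overlap. None of the 3 was called with the compared locations fitted alone (adjusted p = 0.0706, 0.0607 and 0.207 for EPHA3, SEMA3D and SEMA4D). Without the filter on low values SEMA3D (0.0575) and SEMA4D (0.0512) were not called, nor was SEMA3D by edgeR (0.0587). Epidermis genes, like SEMA3D and SEMA4D and unlike EPHA3, were higher anteriorly on the back, with summed levels of 37069 to 44808 anteriorly and 22092 to 25814 posteriorly and 1 of 10 called higher anteriorly. Melanocyte genes did not overlap along the back either (4914 to 7594 and 2189.8 to 3145), with 1 of 9 called higher anteriorly. Of the other lists, 1 dermal gene was higher anteriorly and 1 endothelial gene lower, and their part in these differences was not tested.

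The replicate block called 11 members along the back, 5 higher and 6 lower anteriorly, against 2% and 3.28% of all genes (5.28% together). The median over members was -0.06 without the block, against 0.02 over all genes. The additional lower ones were the netrins NTNG1 (-1.93, adjusted p = 0.0198) and NTN4 (-1.92, 0.0499), the netrin receptor UNC5B (-1.34, 0.014), EFNA2 (-0.87, 0.0205) and SLIT1 (-0.93, 0.0379). The additional higher ones were SEMA5B (1.18, 0.0454), SEMA5A (0.85, 0.0271) and PLXNB1 (0.86, 0.0243). NTN4, a secreted netrin of basement membranes, read 195, 159.6 and 97.3 in dorsal anterior, 295, 235 and 209.8 in saddle and 609.9, 379 and 717 in dorsal posterior libraries, and 44.8, 218 and 308 in ventral anterior and 510.2, 559.8 and 309.8 in ventral posterior ones. The dorsal posterior libraries lay above the dorsal anterior ones, while ventral anterior and posterior libraries nearly met, and NTN4 was not called there (-1.61, SE 0.53).

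**Figure D5:**
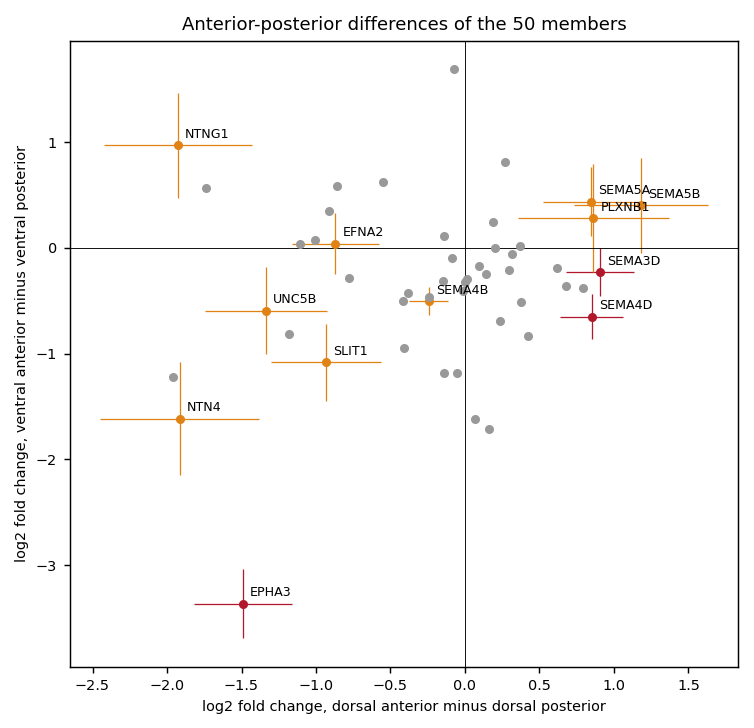
Each point is 1 of the 50 members. The horizontal axis gives its log2 fold change between dorsal anterior and dorsal posterior skin and the vertical axis that between ventral anterior and ventral posterior skin. Red points were called in at least 1 of the comparisons and orange points only with the replicate block, both with SE bars, and grey points were not called. EPHA3 lies lowest, with -1.49 dorsally and -3.36 ventrally, and SEMA4D and NTNG1 have opposite signs on the 2 sides.

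The anterior-posterior difference itself differed between back and belly for SEMA4D (2% of members, against 0.828% of all genes, 0.35% higher and 0.478% lower). Its libraries were higher anteriorly on the back and lower anteriorly on the belly, with 855, 1160.1 and 1472 in dorsal anterior, 533, 586 and 796 in dorsal posterior, 427, 587 and 485 in ventral anterior and 802, 834 and 707 in ventral posterior libraries. Of the marker lists 1 epidermis and 1 melanocyte gene were called in the same direction, and their part was not tested. The difference of the log2 fold changes was 1.50 (SE 0.30, adjusted p = 0.022). It was not called without dorsal anterior replicate 8, dorsal posterior replicate 3 or 8, ventral anterior replicate 11 or ventral posterior replicate 3 or 8 (1.38 to 1.49), nor with the compared locations fitted alone (adjusted p = 0.0806). The replicate block called 2.93% of all genes, 1.33% higher and 1.61% lower. With it EPHA3 (1.87, adjusted p = 0.0433) and NTNG1 (-2.90, 0.0241) were called as well. In the fit without the block the NTNG1 difference was -2.29 when dorsal anterior replicate 3 was left out. NTNG1, a lipid-anchored netrin like NTNG2, read 57.8, 242 and 179 in dorsal anterior and 419.9, 705 and 474 in dorsal posterior libraries, against 378, 676 and 646 and 404, 337 and 160.0 in the ventral ones.

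Ventral-most skin was lower than the other ventral locations for SLIT3 and EPHA7 (4% of members, against 0.678% of all genes, 0.286% higher and 0.393% lower). SLIT3 read 491, 569 and 618 there against 962, 1752 and 2078 in ventral anterior, 856, 1466 and 2195 in flank and 1001, 2149 and 2978 in ventral posterior libraries, without overlap (difference -1.50 on the log2 scale with SE 0.32 and adjusted p = 0.0386). EPHA7 gave -1.30 (SE 0.29, adjusted p = 0.0441). The median over members was -0.16, against 0.00 over all genes. Both calls were near the threshold. That of SLIT3 ended without any of 13 of the 21 libraries (-1.58 to -1.39) and that of EPHA7 without any of 14 (-1.44 to -1.19). Neither was called with the ventral locations fitted alone (adjusted p = 0.117 and 0.0656), nor EPHA7 by edgeR (0.0583) or without the filter on low values (0.0519). With the replicate block, which called 2.42% of all genes, 1.08% higher and 1.34% lower, 2 members were higher, SLIT1 (1.09, adjusted p = 0.00982) and NRP1 (0.99, 0.0181), and 6 lower, the additional ones being UNC5A (-1.97, 0.0317), SEMA4A (-1.02, 0.0327), EPHB2 (-0.61, 0.00609) and EPHB3 (-0.43, 0.0366). On the belly the SLIT1 mean was highest in ventral-most skin (2679.7 ± 749), that of SLIT2 in the flank (2479.6 ± 443) and that of SLIT3 in ventral posterior skin (2042 ± 993). Endothelial genes had their highest summed level in ventral-most skin (7299.5 to 7542), with 1 of 10 called higher. Epidermis genes had their lowest there (9004 to 11017, against 11402 to 20642 at the other ventral locations), with 1 of 10 called lower, as were 1 dermal and 1 neuron gene, and their part in these results was not tested.

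The dorsal saddle differed from the rest of the back in no member. Limma called 0 of 50 (0.143% of all genes, 0.0928% higher and 0.05% lower), and edgeR, DESeq2 and the replicate block also called 0. With the block the share of all genes was 0.407% (0.278% higher and 0.129% lower). An unadjusted p below 0.05 in limma was reached by 2 members, a count whose share over all genes is not given here. The median was 0.01 over members and 0.00 over all genes. The members with the smallest adjusted p were NRP1 and NTNG1. NRP1 stood at 3076, 3476 and 3929 in the saddle against 1306, 1777 and 1678 anteriorly and 1744, 1329 and 3749 posteriorly (difference 0.95 on the log2 scale with SE 0.32 and adjusted p = 0.571), so that dorsal posterior replicate 11 lay within the saddle's range. NTNG1 stood at 401, 515 and 876 in the saddle (difference 1.09 on the log2 scale with SE 0.43 and adjusted p = 0.79).

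Several members lie near each other in the genome. SEMA3D, SEMA3A, SEMA3E and SEMA3C occupy a stretch of chromosome 1A from 7636023 to 10112887 in the coordinates of the table, whose build is not given in the sources used here. SEMA3D, SEMA3E and SEMA3C all had their lowest mean in ventral anterior skin (2765 ± 585, 206 ± 232 and 1266 ± 766), while that of SEMA3A lay in the flank (2202 ± 791). Their highest means lay apart, in dorsal anterior skin for SEMA3D and SEMA3A, in the saddle for SEMA3E and in ventral posterior skin for SEMA3C. The SEMA3C libraries of ventral posterior skin held 2365, 7624 and 2103 in replicates 3, 8 and 11. Their median of 2365 lay below that of dorsal anterior skin (2856). SEMA3E, the ligand of PLXND1, varied widely between libraries of a location, with 621, 864 and 1606 in the saddle and 275, 235 and 1393 in dorsal posterior skin. SEMA3B and SEMA3F both lie on chromosome 12, at 6796462 to 6799369 and 6731883 to 6748989. Both also had their lowest mean in ventral anterior skin, and their location means ran from 74.3 to 283 and from 6066 to 8017.

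SEMA4D and RGMB lie on chromosome Z and SEMA6A on an unplaced part of it. Birds carry a pair of Z chromosomes in males and a single one in females, and the sex of the embryos is not in the labels. The replicate number took 7.7% of the variance of SEMA4D, 7.2% of that of SEMA6A and 1.0% of that of RGMB. Location took 79.9%, 75.0% and 36.7% in the same order. The medians over all genes were 23.0% for the number and 37.1% for location. What part sex has in these values was not tested. RGMB, whose product binds neogenin as RGMA does, had location means from 155 to 207 and was called in no comparison.

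Other members followed the replicate number more than the location. For EPHA8 the number took 57.6% of the variance and location 13.2%, and for PLXNB2 56.6% and 14.8%. EPHA8 counts in replicate 8 were between 30.0 and 65.5 over the 7 locations, and in replicate 11 between 2.03 and 13.1. In replicate 3 they were between 0 and 1.95 at every location but the flank, where the library held 136. In all, 25 of the 50 members were called in none of the 8 comparisons, and 16 not with the replicate block either, among them EPHA2, EPHA4, EPHA5, EPHA6, EPHA8, EPHA10, EFNB2, PLXNA1, PLXNB2, SEMA3F, SEMA4C, SEMA6D and RGMB. The 3 genes matched by letters alone, PLXDC1, PLXDC2 and UNC50, complete the 16. The matching shares over all genes are not given here, so neither count sets the members apart from other genes. EPHA5, a receptor for A-type ephrins, had unlike ventral anterior libraries, at 209, 3179.9 and 2671, and its location means ran from 239.5 in the flank to 2020.1 there.

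Genes that act with the guidance families were tested in the same fit, where 9.31% of all genes were higher and 7.89% lower in dorsal skin (17.2% together). Of 16 tested co-receptors, alternative ligands and related surface proteins, 2 were higher dorsally and 4 lower (median log2 fold change 0.16), and of 21 tested cytoplasmic effectors 1 was higher and 1 lower (median -0.06). NEO1, which encodes neogenin, the receptor of RGM proteins and of netrins, averaged 6864 ± 1278 dorsally and 11879 ± 3807 ventrally (difference -0.75 on the log2 scale with SE 0.15 and adjusted p = 0.00213). FLRT3, a surface ligand of UNC5 receptors, averaged 5914 ± 1276 and 3542 ± 941 (difference 0.76 on the log2 scale with SE 0.16 and adjusted p = 0.00336). LRIG1 (1.24, SE 0.31) was the other higher one, and FLT1 (-1.32, SE 0.28), a VEGF receptor of endothelium, was lower, as were KDR (-0.95, SE 0.29) and PTPRO (-1.18, SE 0.34). FLT1 and KDR also stand on the endothelial list. PAK1, a kinase activated by Rac downstream of many guidance receptors, was 943 ± 154 and 574 ± 70.7 (difference 0.71 on the log2 scale with SE 0.10 and adjusted p = 8.58e-05). NGEF, which encodes ephexin, an exchange factor that acts below EphA receptors, was lower dorsally (-1.37, SE 0.28). The calls of NEO1, KDR and NGEF ended over the anterior and posterior locations alone (-0.58, -1.23 and -0.62), and that of NGEF without the flank (-0.77). That of KDR also ended without dorsal anterior replicate 3 (-0.93) or 8 (-0.80), dorsal saddle replicate 11 (-0.91), dorsal posterior replicate 8 (-0.74) or ventral anterior replicate 3 (-0.85). Among these co-receptors, ligands and effectors, only the calls of FLRT3 and PAK1 remained whichever replicate number was left out.

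NGEF was also the effector called higher in the flank, where its libraries held 322, 778 and 1207 from lowest to highest, against location means of 108 to 162 elsewhere on the belly (difference 2.37 on the log2 scale with SE 0.42 and adjusted p = 0.00486). SRGAP1, a GTPase regulator that binds Robo receptors, was lower there, at 607 ± 166 against means of 1098 to 1211 (difference -0.96 on the log2 scale with SE 0.19 and adjusted p = 0.0114). The calls ended without flank replicate 8 for NGEF (1.95) and without flank replicate 3 for SRGAP1 (-0.72). PTPRO, a phosphatase that in chick removes phosphate from Eph receptors, was lower in dorsal anterior than dorsal posterior skin, at 17.8 ± 10.5 against 209 ± 97.2 (difference -3.52 on the log2 scale with SE 0.62 and adjusted p = 0.00442). The flank calls of NGEF and SRGAP1 and the call of PTPRO along the back ended without replicate number 8. That of NGEF also ended without number 11, and the others also without number 3. Of the 16 co-receptors, alternative ligands and related surface proteins, limma called 0 in the flank, and the replicate block 1 higher and 1 lower.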

How the data were processed

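RNA-seq was measured in 21 skin libraries, 3 at each of 7 locations. Per the labels' protocols, total RNA was amplified with a SMART-Seq kit, which does not mark strand, before library preparation. Per the submitters' processing notes the tools included STAR 2.4.0, FastQC, Picard, SAMtools and DESeq2 (no build is given in the sources used here). The table deposited by the authors holds a normalised signal per gene, by its values counts divided by a library size factor: 100% came out as whole reads within 0.01. Symbols came from the deposited names and RefSeq Entrez identifiers.

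Values were tested as log2(value + 1) with limma 3.58.1 (R 4.3.3; trend, robust, two-sided), 1 fit of 7 locations, over the 14005 genes that reached 10 in 3 or more libraries, with Benjamini-Hochberg adjustment. Fold changes understate those of low genes. The method was tested on simulated counts for the dorsal-ventral comparison alone. Those counts had no effect of replicate number, so the test does not cover the pairing or the other comparisons. Alternatives were pseudocounts of 0.5 and 5, other filters, TMM scaling, edgeR 4.0.16 and DESeq2 1.42.0 on recovered reads, a replicate block, fewer locations, and leaving out libraries or replicate numbers. Libraries and replicate numbers were left out only in the fit without the block, so calls made only with the block were not checked in this way.

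The replicate numbers in the titles pair the samples: deviations of same-numbered libraries from their location means correlated at 0.27 to 0.53 in all 63 pairs. Those of other numbers correlated at -0.32 to -0.05. Their negative sign follows from centring on location means once same numbers correlate, so it adds no separate support. The main fit left the number out and so ignored this pairing, while the replicate block took it in. The labels do not say what a number marks, so p-values measure the spread between these samples, which may be technical. Genes named are up to 12 called members per direction with the largest change (8 for anterior-posterior, 4 for other contrasts), their family partners, up to 4 called pathway genes per list, and, where none was called, the 2 smallest adjusted p. EPHA8, PLXNB2, EPHA5 and the neighbouring semaphorins are named besides, after their values were seen. The genes and lists were chosen with earlier results of these data known. Marker lists covered epidermis, dermis, endothelium, neurons, Schwann cells and neural crest, melanocytes, muscle, spinal cord, macrophages and cartilage.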

Additional observations from a re-analysis of the deposited data

Results flagged for a closer look

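UNC50, which shares only its first letters with the UNC5 receptors, had 1 dorsal library far from the others: dorsal anterior replicate 3 held 1744 normalised counts, against 1152 to 1344 in the other 8. On the scale of log2(normalised count + 1) the gap took 0.628 of the range, above the critical value of 0.493 for 9 samples. The 9 dorsal libraries come from 3 locations and are not 1 uniform group. It was the only such library among the dorsal libraries of the 50 members, and chance flags about 1 in 20 groups. Groups of 3 or of more than 10 libraries, the 12 ventral ones included, were not checked in this way. The anterior-posterior difference of SEMA4D, the plexin B1 ligand, was unlike on the back and the belly, with a difference of 1.50 between the log2 fold changes (SE 0.30, adjusted p = 0.022 by limma, and 0.0806 with the compared locations fitted alone).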

How the results depend on the processing

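No call or direction was reversed. Counts of called members moved by 1.5 times or more as follows. Over the anterior and posterior locations alone, 9 in place of 17 members differed between dorsal and ventral skin. With the replicate block the counts were 11 in place of 3 along the back, 4 in place of 1 along the belly, 3 in place of 1 for the difference between them, 14 in place of 7 for the flank and 8 in place of 2 for ventral-most skin, and 33 in place of 22 differed among locations. DESeq2 gave 6, 2 and 4 for the anterior-posterior comparisons in the same order and 6 for ventral-most skin, where edgeR gave 1. With the compared locations fitted alone the count was 0 along the back, 0 for the difference and 0 for ventral-most skin, and without the filter it was 1 along the back and 1 for ventral-most skin. Leaving out a library or a replicate number gave 3 to 24 members among locations, 7 to 18 for dorsal against ventral skin, 0 to 5 along the back, 1 to 2 along the belly, 0 to 2 for their difference, 0 for the saddle, 1 to 9 for the flank and 0 to 3 for ventral-most skin. Shares of all genes called are given above for the main fit and the replicate block only. Under the other settings these counts therefore do not set the members apart from other genes. The cause of these shifts was not tested. Fits over fewer locations were not run for the difference among all 7. With 3 libraries per location, a p that misses the threshold does not show that locations are alike.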
